A study of Homo sapiens with 24 samples.

Results

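The fraction ratio of a gene, taken here as the log2 ratio of its level in total RNA over its level in cytoplasmic RNA, was compared between U-251MG and U-2 OS. U-251MG is a glioblastoma cell line and U-2 OS an osteosarcoma cell line. Of 19099 genes with enough reads in these lines, 165 had a ratio that differed between U-251MG and U-2 OS at an adjusted p under 0.05 (0.864% of the genes tested). The ratio was higher in U-251MG for 86 genes (0.45%) and lower for 79 genes (0.414%). The groups were U-251MG total RNA and U-251MG cytoplasmic RNA with 4 libraries each, U-2 OS total RNA with 4 libraries and U-2 OS cytoplasmic RNA with 3. All came from untreated, unmodified cells and were sequenced after poly(A) selection, so that RNA without a poly(A) tail was largely out of reach. Another line, A-431, an epidermoid carcinoma line with 4 libraries per fraction, took no part in choosing the genes and is set beside them where stated. The full series holds 24 libraries and 51715 genes.

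Ribosomes translate the RNA of the cytoplasm, and some transcripts linger in the nucleus or never leave it. Total RNA holds both compartments. A gene with a ratio above that of most genes therefore has relatively more of its poly(A) RNA outside the cytoplasmic preparation, as for a transcript held in the nucleus or one lost with the nuclear pellet, and a ratio below it marks RNA that is relatively rich in the cytoplasmic preparation. Counts were scaled per library, as counts per 1e+06 reads assigned to genes (CPM), so a ratio is relative to the other genes and says nothing of the absolute share of an RNA in the nucleus. Whether the ratio follows nuclear location was not tested. MALAT1 and NEAT1, lncRNAs of nuclear speckles and paraspeckles, had less CPM in total than in cytoplasmic RNA. The ratio difference is the U-251MG ratio minus the U-2 OS ratio, both in log2 units, and its median over the genes tested was -0.01.

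Each library held between 19918911 and 30835231 reads assigned to genes. One U-2 OS cytoplasmic library, cytoRNA13, was left out, because the study discarded a cytoplasmic U-2 OS sample and this library matched no entry of its read table. In that library 21.5% of uniquely aligned reads did not lie wholly within exons, against 16.9% to 17.8% in the other U-2 OS cytoplasmic libraries. With it put back, 78 genes were higher and 10 lower in U-251MG. In U-251MG, the total RNA library totRNA8 stood apart from the other total RNA libraries on the second principal component (48.0, against 20.8 to 24.3), and without it 49 genes were higher and 32 lower. Flow cells were inferred by matching the read totals of each library to rounded entries of the study's read table. By this matching, cytoplasmic libraries cytoRNA15, 16, 17 and 18 were read on another flow cell than the rest of the 15. With flow cell as a term of the model 108 genes were higher and 104 lower, and on the first flow cell alone 3 were higher and 2 lower. That last fit had 1 U-2 OS cytoplasmic library, which was assumed to vary like the other groups, and in it the median difference was 0.43 for the 86 genes and -0.89 for the 79, against 0.52 and -0.95 with all 15 libraries. The spread between libraries was wider in U-251MG, with a common biological coefficient of variation of 0.108, against 0.0584 in U-2 OS. Glial and neural stem cell markers summed to 8666 to 9647 CPM in U-251MG total RNA and to 2199 to 2305 CPM in U-2 OS total RNA. Most of this sum was VIM, at 6936 CPM in U-251MG total RNA and 1862 CPM in U-2 OS total RNA. GFAP averaged 2.65 CPM in U-251MG total RNA. NES (49.8 against 171 CPM), OLIG2 (0 against 4.03 CPM), NCAN, BCAN and MSI1 were lower in U-251MG than in U-2 OS total RNA. Osteoblast markers did not separate the lines, with sums of 2848 to 3313 CPM in U-251MG and 2800 to 2910 CPM in U-2 OS total RNA. Of these markers, COL1A1 averaged 1217 CPM in U-2 OS total RNA, against 12.9 CPM in U-251MG total RNA. In U-2 OS total RNA, ALPL averaged 2.12 CPM and IBSP was at 0. COL1A2 (593 against 0.591 CPM), SPARC, SPP1, CDH11, RUNX2 and TWIST1 were higher in U-251MG than in U-2 OS total RNA.

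The difference lay mostly in the U-251MG ratio. Of the 86 genes with a higher ratio in U-251MG, 73 had a ratio above 0 at an adjusted p under 0.05 in U-251MG and no such ratio in U-2 OS, and the other 13 were above 0 in both lines. Of the 79 genes with a lower ratio, 63 were below 0 in U-251MG alone, 15 were below 0 in both lines, and 1 was called in U-2 OS alone. No gene was called above 0 in one line and below 0 in the other. The 86 genes had a median ratio of 0.63 in U-251MG, against 0.11 in U-2 OS, and the 79 genes a median ratio of -1.14 in U-251MG, against -0.18 in U-2 OS. The 4 total and 4 cytoplasmic libraries of U-251MG did not overlap in CPM for any of the 86 genes, nor for 78 of the 79. Over all tested genes, total RNA lay wholly above cytoplasmic RNA in U-251MG for 19.3% and wholly below for 18.9%. In U-2 OS the libraries overlapped for 60 of the 86 and for 52 of the 79, about as often as over all tested genes. Total RNA lay wholly above in U-2 OS for 25 of the 86 and wholly below for 1. For the 79 genes it lay wholly below for 23 and wholly above for 4. Over all tested genes total RNA lay wholly above for 16.4% and wholly below for 15.3% in U-2 OS. These counts describe the genes after selection and carry no test of their own.

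**Figure D1:**
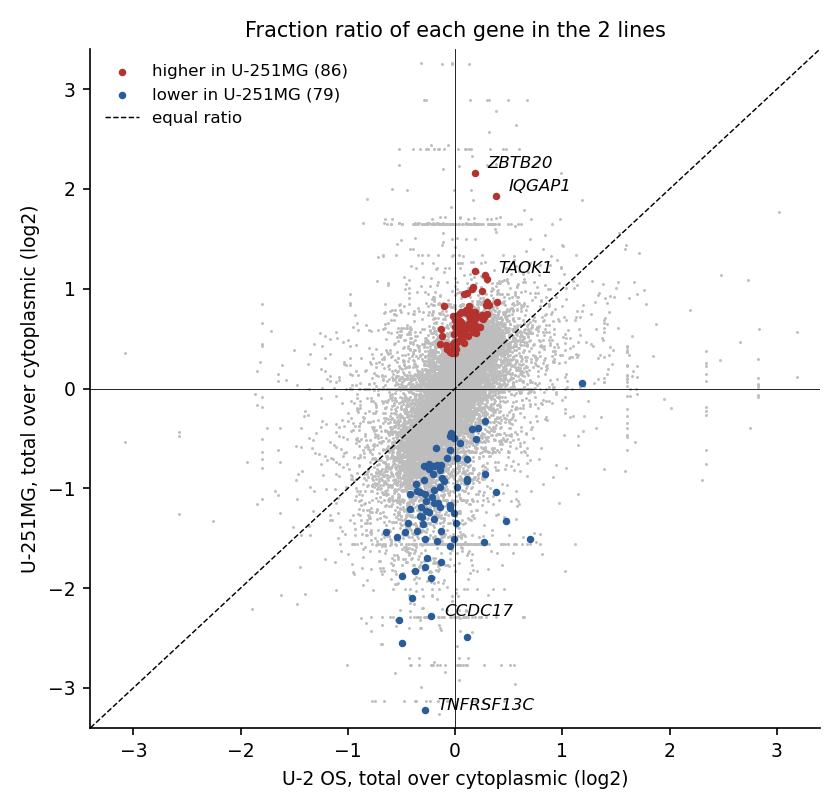
Total over cytoplasmic log2 ratio of each tested gene in U-2 OS (x axis) and U-251MG (y axis), with the 86 genes higher in U-251MG in red, the 79 genes lower in U-251MG in blue, other genes in grey and equal ratios on the dashed line. The called genes lie near 0 along the x axis and away from 0 along the y axis. Axes end at 3.4 and leave out 41 genes.

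Over all tested genes, too, ratios lay further from 0 in U-251MG. The ratio was called above 0 for 23.6% and below 0 for 23.4% of tested genes in U-251MG, against 6.79% and 6.55% in U-2 OS. The interquartile range of the ratio over genes was 0.639 in U-251MG, against 0.348 in U-2 OS, and the size of the ratio was larger in U-251MG for 73.99% of genes. Across genes, the ratios of the lines had a Pearson r of 0.41 and a Spearman rho of 0.60, as a description of 19099 genes that share libraries within each line.

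The gene with the smallest p was IQGAP1 (ENSG00000140575, chr15:90931474-91045471 on the plus strand of GRCh37), which encodes a scaffold that ties the actin cytoskeleton to signalling proteins. IQGAP1 reached 957, 1057, 984 and 1144 CPM in U-251MG total RNA and 248, 228, 329.7 and 281 CPM in U-251MG cytoplasmic RNA. In U-2 OS, it had 558, 498, 491 and 534 CPM in total RNA and 392, 398 and 410.3 CPM in cytoplasmic RNA. Total RNA lay above cytoplasmic RNA in both lines with no overlap, and the gap was wide in U-251MG and narrow in U-2 OS. The ratio was 1.93 in U-251MG, against 0.38 in U-2 OS, a difference of 1.55 ± 0.13 (SE; edgeR adjusted p = 4.63e-07). Its level, here and below the mean over both fractions, differed by 0.22 between the lines (log2). That mean hides opposite shifts. Total RNA averaged 1035 CPM in U-251MG, against 520 CPM in U-2 OS, and cytoplasmic RNA 272 CPM, against 400 CPM. A level near equality is therefore no sign of equal amounts in total RNA. The other genes of the family, IQGAP2 and IQGAP3, had differences of 0.14 and -0.08 and did not pass the test (edgeR adjusted p = 0.777 and 0.709).

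ITGB8 (ENSG00000105855, chr7:20370325-20455377, plus strand), the integrin beta chain that helps to activate latent TGF-beta, had the next largest difference among genes with at least 5 CPM in each group. It had 72.8, 89.2, 72.5 and 85.1 CPM in U-251MG total RNA and 33.5, 46.8, 46.4 and 39.4 CPM in U-251MG cytoplasmic RNA, against 58.9, 57.7, 53.1 and 56.5 CPM in U-2 OS total RNA and 49.2, 52.2 and 58.3 CPM in U-2 OS cytoplasmic RNA. The fractions were apart in U-251MG and overlapped in U-2 OS. The ratio difference was 0.86 ± 0.14 (SE; edgeR adjusted p = 0.00617), with no called difference in level over both fractions (0.07, edgeR adjusted p = 0.333). TAOK1 (ENSG00000160551, chr17:27717381-27878921, plus strand), a kinase that acts on MAP kinase cascades and microtubules, had 109, 117, 111 and 129 CPM in U-251MG total RNA and 51.2, 57.2, 55.7 and 47.8 CPM in U-251MG cytoplasmic RNA. In U-2 OS it had 137, 115, 112 and 115 CPM in total RNA and 96.0, 95.7 and 103 CPM in cytoplasmic RNA. Its level in total RNA thus overlapped between the lines while its cytoplasmic level did not, and the difference was 0.86 ± 0.11 (SE; edgeR adjusted p = 3.28e-04). Its paralogues TAOK2 and TAOK3 had differences of -0.17 and 0.17 and did not pass (edgeR adjusted p = 0.454 and 0.483).

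CLOCK is a transcription factor of the circadian oscillator and PTPN14 a tyrosine phosphatase that restrains YAP. Both also combined a ratio difference with a level over both fractions near equality. CLOCK had 131, 155, 150.3 and 184 CPM in U-251MG total RNA and 84.9, 86.7, 96.7 and 81.8 CPM in U-251MG cytoplasmic RNA, against 120.04, 109, 106 and 117 CPM in U-2 OS total RNA and 101.1, 98.3 and 110.0 CPM in U-2 OS cytoplasmic RNA. Its ratio was 0.82 in U-251MG, against 0.13 in U-2 OS (difference 0.69 ± 0.12, SE; edgeR adjusted p = 0.00901). PTPN14 had a ratio of 0.69 in U-251MG, against 0.00 in U-2 OS (difference 0.69 ± 0.15, SE; edgeR adjusted p = 0.0398). ATF7IP, a partner of the histone methyltransferase SETDB1, and APC, a Wnt pathway scaffold, showed smaller differences of 0.54 and 0.53 at levels that differed by -0.19 and -0.16. In all, 25 of the 86 genes with a higher ratio had a level within 0.25 (log2) of each other in the lines. The level was called different for 75 of the 86, 25 higher and 50 lower in U-251MG, where the level was called for 83.7% of all genes tested.

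The remaining genes of largest difference, among coding genes and lncRNAs with at least 5 CPM in each group, were ZBTB41 (0.80), AAK1 (0.74), TET1 (0.71), SESN3 (0.68), BRCA2 (0.65), GPC6 (0.64) and MINDY2 (0.62), all past the test. They do unlike things: ZBTB41 is a zinc finger protein, AAK1 a kinase of clathrin adaptors, TET1 an oxidase of methylated cytosine, SESN3 a stress-induced sestrin, BRCA2 a factor of homologous recombination, GPC6 a cell-surface glypican and MINDY2 a deubiquitinase. TET1 had 8.38, 11.1, 9.16 and 9.41 CPM in U-251MG total RNA and 5.16, 4.74, 6.58 and 6.32 CPM in U-251MG cytoplasmic RNA, against 26.2, 25.6, 24.1 and 27.1 CPM in U-2 OS total RNA and 22.6, 24.4 and 28.3 CPM in U-2 OS cytoplasmic RNA. U-251MG had less TET1 in both fractions, and its fractions were apart where those of U-2 OS overlapped. ZBTB20, a transcriptional repressor that was singled out after its values were seen, had the largest fitted difference of the 86 (1.97 ± 0.29, SE; edgeR adjusted p = 0.00368), at a mean of 4.22 CPM. It had 3.11, 3.92, 3.49 and 3.57 CPM in U-251MG total RNA and 0.696, 1.0004, 0.904 and 0.549 CPM in U-251MG cytoplasmic RNA, against 9.64, 5.85, 4.73 and 6.58 CPM in U-2 OS total RNA and 6.64, 5.45 and 5.51 CPM in U-2 OS cytoplasmic RNA.

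The genes with a lower ratio in U-251MG were less abundant, with a median of 8.32 CPM over the groups, against 73.2 CPM for those with a higher ratio. Of the 79, 18 had a mean under 1 CPM in at least 1 group, and for 13 the levels of the lines differed by over 3 (log2). KRT17, a keratin of epithelia, had 0.0527 to 0.182 CPM in U-251MG total RNA and 0.235 to 0.519 CPM in U-251MG cytoplasmic RNA, against 429 to 491 CPM and 487 to 516 CPM in the U-2 OS fractions. KRT17 was thus close to 0 in every U-251MG library, where the ratio difference of -1.61 ± 0.39 (SE; edgeR adjusted p = 0.0477) arose.

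Among lower-ratio genes with at least 5 CPM in each group, ZGPAT and ZNF789 had the largest differences. ZGPAT (ENSG00000197114, chr20:62338817-62367494, plus strand), a zinc finger repressor of transcription, had 20.98, 17.4, 16.8 and 14.7 CPM in U-251MG total RNA and 34.0, 34.5, 30.6 and 33.1 CPM in U-251MG cytoplasmic RNA. In U-2 OS it had 13.4, 14.2, 18.01 and 14.1 CPM in total RNA and 16.2, 17.8 and 14.4 CPM in cytoplasmic RNA. Cytoplasmic RNA was the higher in U-251MG with no overlap, while the U-2 OS libraries overlapped (difference -0.82 ± 0.15, SE; edgeR adjusted p = 0.0169). ZNF789, another zinc finger gene, had a ratio of -1.01 in U-251MG, against -0.20 in U-2 OS (difference -0.82 ± 0.16, SE; edgeR adjusted p = 0.0189).

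MRPS25 (ENSG00000131368, chr3:15051118-15106846, minus strand), a protein of the small mitochondrial ribosomal subunit, had 51.9, 40.9, 41.8 and 37.1 CPM in U-251MG total RNA and 78.3, 69.4, 74.1 and 69.5 CPM in U-251MG cytoplasmic RNA, against 42.8, 42.4, 41.0 and 41.7 CPM in U-2 OS total RNA and 46.4, 50.3 and 44.7 CPM in U-2 OS cytoplasmic RNA. Total RNA levels overlapped between the lines, and cytoplasmic levels did not (difference -0.60 ± 0.12, SE; edgeR adjusted p = 0.0189). It was the 1 called of 74 mitochondrial ribosomal protein genes (1.35%), beside 0.864% of all genes, and their median difference was -0.01. GTPBP3, which modifies mitochondrial tRNA, had a difference of -0.65, NDOR1, a reductase of cytosolic iron-sulphur assembly, one of -0.63, and SLC25A37, the mitochondrial iron importer mitoferrin, one of -0.61. SLC25A37 had 36.8, 35.8, 38.995 and 31.9 CPM in U-251MG total RNA and 48.5, 45.3, 46.6 and 48.7 CPM in U-251MG cytoplasmic RNA, against 16.7, 20.1, 20.2 and 17.9 CPM in U-2 OS total RNA and 16.95, 16.5 and 14.96 CPM in U-2 OS cytoplasmic RNA. Here the U-2 OS ratio was 0.21 and the U-251MG ratio -0.40.

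The other genes of this set were RUSC1-AS1 (-0.78), an antisense lncRNA, AGAP6 (-0.77), an Arf GTPase-activating protein of a gene family with near-identical copies that can share reads, ZNF276 (-0.67), GATD1 (-0.62), TOP3B (-0.59), a topoisomerase that acts on DNA and RNA, and USP35 (-0.59), a deubiquitinase. At levels near equality, with at least 20 CPM in each group, the rule found NISCH and CPSF4. NISCH (ENSG00000010322, chr3:52489134-52527084, plus strand), the integrin-binding protein nischarin, had 78.4, 72.9, 70.6 and 57.2 CPM in U-251MG total RNA and 135, 121, 109.8 and 112 CPM in U-251MG cytoplasmic RNA, against 88.1, 87.1, 97.6 and 80.5 CPM in U-2 OS total RNA and 95.3, 116 and 93.2 CPM in U-2 OS cytoplasmic RNA. The difference was -0.58 ± 0.14 (SE; edgeR adjusted p = 0.0477), beside a level difference of -0.05. CPSF4 (ENSG00000160917, chr7:99036545-99054996, plus strand), a subunit of the cleavage and polyadenylation factor, had 37.8, 36.9, 36.0 and 36.3 CPM in U-251MG total RNA and 51.3, 51.2, 45.3 and 52.2 CPM in U-251MG cytoplasmic RNA. In U-2 OS, CPSF4 had 49.1, 47.3, 47.8 and 46.5 CPM in total RNA and 51.2, 50.4 and 44.8 CPM in cytoplasmic RNA, with overlap (difference -0.41 ± 0.09, SE; edgeR adjusted p = 0.0417). For CPSF4 it was total RNA that was lower in U-251MG than in U-2 OS, while the cytoplasmic levels overlapped.

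**Figure D2:**
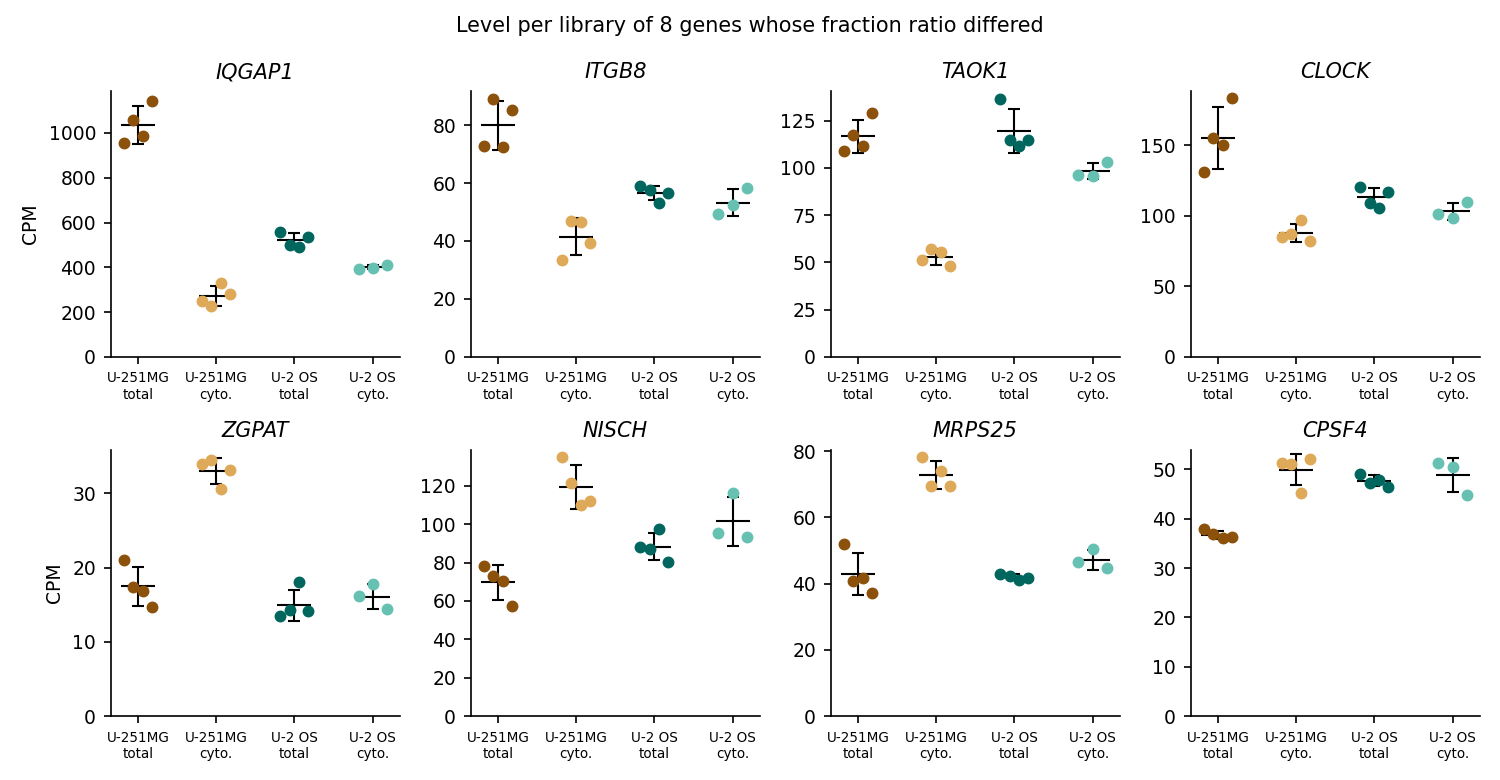
CPM of 8 genes (y axis from 0) in each library of U-251MG total, U-251MG cytoplasmic, U-2 OS total and U-2 OS cytoplasmic RNA, with points for libraries, a bar for the mean and whiskers for 1 SD. IQGAP1, ITGB8, TAOK1 and CLOCK are lower in U-251MG cytoplasmic RNA than in U-251MG total RNA, and ZGPAT, NISCH, MRPS25 and CPSF4 are higher.

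Of the 165 genes, 1 had a ratio called in U-2 OS alone. The lncRNA ENSG00000236498 (chr2:62095567-62113217, plus strand), named after its values were seen, had 1.27, 1.44, 1.54 and 1.57 CPM in U-251MG total RNA and 1.54, 1.52, 1.19 and 1.37 CPM in U-251MG cytoplasmic RNA. In U-2 OS it had 2.01, 2.22, 2.20 and 1.71 CPM in total RNA and 0.989, 0.810 and 0.872 CPM in cytoplasmic RNA. The fractions overlapped in U-251MG and were apart in U-2 OS (difference -1.13 ± 0.26, SE; edgeR adjusted p = 0.0438). With each of the 15 libraries left out in turn, this lncRNA was called in 4 fits.

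A-431, which did not enter the choice, had ratios on the U-251MG side for most of these genes. Of the 82 higher-ratio genes with enough reads in A-431, 78 had a ratio above 0 at an adjusted p under 0.05, where 25% of 16376 genes did, and the median ratio was 0.56. Of 74 lower-ratio genes, 68 were called below 0 in A-431, where 25.6% of genes were, with a median of -0.89, and 1 was called above 0. Nearly all these genes also had a U-251MG ratio called on that side. The A-431 share among all genes so called in U-251MG was not counted. The A-431 counts can therefore not be read as particular to genes whose ratio differs between the lines. A-431 had a larger ratio than U-251MG in the direction of the difference for 21 of the 82 and 18 of the 74, and the others lay between the lines. IQGAP1 had a ratio of 3.05 in A-431, and SPTBN1, a spectrin singled out after its values were seen, had 2.09 in A-431, beside 0.45 in U-251MG and a U-2 OS ratio of -0.14. By the inferred flow cells, all A-431 total RNA was read on the first and all A-431 cytoplasmic RNA on the other. Fraction and flow cell can therefore not be told apart in A-431.

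The called genes separated by base composition, which the rule did not use. Coding genes with a higher ratio had a median transcript GC content of 39.9% (74 of the 86 genes), those with a lower ratio 59.5% (46 of the 79), and all tested coding genes 49.0%. Of the 74, 65 had a GC content under 45%, as had 36.2% of tested coding genes, and of the 46, 35 had one over 55%, as had 31.7%. Higher-ratio transcripts were also long, with a median coding sequence of 4311 bases and a median 3' UTR of 4503 bases, against 1600.5 and 670.5 bases for lower-ratio genes and 1455 and 1146 bases for all. They held a median of 18 exons, against 9.5 in lower-ratio genes and 9 overall. These are medians of 1 annotated transcript per gene and carry no test.

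To show this composition, 120 bases from the middle of the longest coding exon of 6 genes are printed, with G and C in capitals, 5' to 3' on the coding strand of GRCh37. ITGB8 and NISCH had levels within 0.25 (log2) of each other in the lines, IQGAP1 had the smallest p, ZBTB41 had the lowest and NDOR1 the highest GC content of the genes named for their differences, and CPSF4 was the other lower-ratio gene at a similar level. The stretches lie at chr15:91026650-91026769 for IQGAP1, chr7:20441487-20441606 for ITGB8, chr1:197168984-197169103 for ZBTB41 (minus strand), chr3:52521857-52521976 for NISCH, chr7:99051615-99051734 for CPSF4 and chr9:140109301-140109420 for NDOR1.
IQGAP1: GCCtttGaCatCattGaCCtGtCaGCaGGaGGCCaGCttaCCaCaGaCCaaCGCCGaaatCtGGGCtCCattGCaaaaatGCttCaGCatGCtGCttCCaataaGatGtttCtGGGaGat
ITGB8: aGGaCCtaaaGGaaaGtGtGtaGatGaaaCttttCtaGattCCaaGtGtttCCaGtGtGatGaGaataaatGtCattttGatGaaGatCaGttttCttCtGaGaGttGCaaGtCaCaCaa
ZBTB41: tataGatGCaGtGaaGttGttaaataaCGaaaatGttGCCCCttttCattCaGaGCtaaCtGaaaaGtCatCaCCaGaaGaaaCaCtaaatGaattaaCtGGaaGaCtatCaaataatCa
NISCH: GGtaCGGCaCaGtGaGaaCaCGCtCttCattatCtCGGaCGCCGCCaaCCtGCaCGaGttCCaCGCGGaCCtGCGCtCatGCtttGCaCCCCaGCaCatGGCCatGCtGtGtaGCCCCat
CPSF4: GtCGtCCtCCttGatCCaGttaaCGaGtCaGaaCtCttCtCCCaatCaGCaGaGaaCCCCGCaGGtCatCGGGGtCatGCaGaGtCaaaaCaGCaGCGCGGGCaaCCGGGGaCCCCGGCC
NDOR1: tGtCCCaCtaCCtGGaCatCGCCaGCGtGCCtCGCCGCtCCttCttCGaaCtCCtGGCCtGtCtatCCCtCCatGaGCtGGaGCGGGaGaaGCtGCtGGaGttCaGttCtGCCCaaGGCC
G and C made up 49.2% of the IQGAP1 stretch, 35.8% of that of ITGB8 and 32.5% of that of ZBTB41, all with a higher ratio in U-251MG. They made up 72 of the 120 bases in NISCH and in CPSF4, and 61.7% in NDOR1, all with a lower ratio. IQGAP1, with a transcript GC content of 43.4%, lay nearer to the middle of all genes than ITGB8 (38.7%) or ZBTB41 (32.9%).

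Over all tested coding genes, the ratio fell with GC content in both lines, and more steeply in U-251MG. In genes with a GC content of 35% or less, the median ratio was 0.52 in U-251MG, against 0.28 in U-2 OS. In those over 65% it was -0.64 in U-251MG, against -0.29 in U-2 OS. The median difference accordingly ran from 0.23 to -0.35 across bins of GC content. Per library, the GC index, which sets the level of GC-rich genes (over 60%) against that of GC-poor ones (under 40%) as a difference of median log2 CPM, centred within each line, averaged -0.50 ± 0.27 in U-251MG total RNA and 0.50 ± 0.19 in U-251MG cytoplasmic RNA (SD, n = 4 each). It averaged -0.20 ± 0.12 in U-2 OS total RNA (SD, n = 4) and 0.26 ± 0.17 in U-2 OS cytoplasmic RNA (SD, n = 3). totRNA8 had the lowest index, -0.90. When a smooth curve of level on GC content was fitted in each library and used as an offset, 20 genes were higher and 25 lower in U-251MG among the 17960 genes with a GC value, against 48 and 46 in the same genes without the offset. IQGAP1, TAOK1 and ITGB8 kept differences of 1.44, 0.69 and 0.68 with the offset and passed the test, while NISCH and CPSF4 had -0.36 and -0.24 and did not. Of the 14 genes per direction named for the size of their difference or for equal levels, 7 higher and 4 lower ones stayed called. The 7 were IQGAP1, TAOK1, ITGB8, CLOCK, ATF7IP, ZBTB41 and AAK1. PTPN14, APC, TET1, SESN3, BRCA2, GPC6 and MINDY2 lost their calls. The 4 were ZGPAT, ZNF789, MRPS25 and SLC25A37. GTPBP3 and NDOR1 had -0.34 and -0.33 with the offset and lost their calls (edgeR adjusted p = 0.328 and 0.129).

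**Figure D3:**
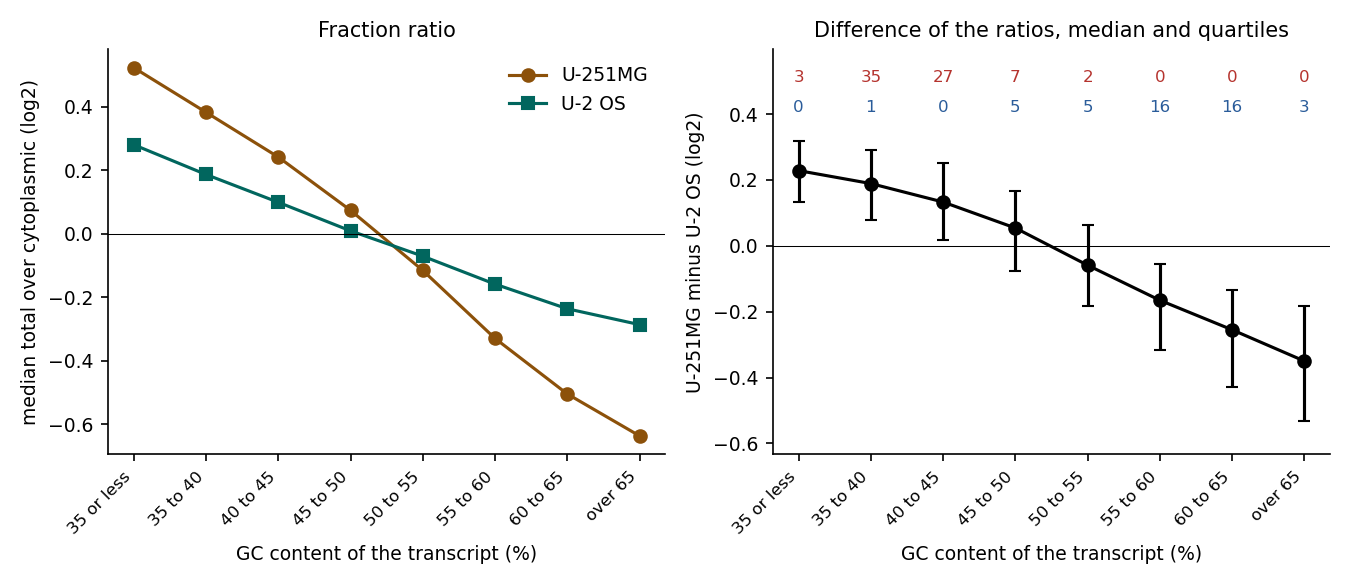
Left, median total over cytoplasmic log2 ratio of coding genes (y axis) by transcript GC content (x axis) in U-251MG and U-2 OS. Right, the median and quartiles of the ratio difference, with the number of genes called higher (red) and lower (blue) in U-251MG above each bin. The U-251MG line is the steeper, and genes called higher lie mostly between 35% and 45% GC, those called lower mostly between 55% and 65%.

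Gene lists were described by their counts and medians. Very long coding sequences, a list of genes for giant proteins, had 8 called of 58, all higher in U-251MG, where 0.45% of all genes were, and a median difference of 0.33, with 55 of 58 above 0. The 8 were APC, BRCA2, ASPM, CENPE, CENPF, SPTBN1, VPS13C and AKAP9, and the last 3 were named after their values were seen. VPS13C, a lipid transfer protein, had a difference of 0.52 and AKAP9, a centrosome and Golgi scaffold, one of 0.42. Abundant members that did not pass were AHNAK (0.43, edgeR adjusted p = 0.345), PLEC (0.05) and FLNA (0.04). With the GC offset, ASPM and SPTBN1 stayed called of the 8, and the list's median difference was 0.26. Without it, the list's median ratio was 0.17 in U-251MG, against -0.16 in U-2 OS.

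Mitosis and kinetochore genes had 4 called of 49, all higher, beside 0.45% of all genes, and a median difference of 0.19. ASPM, a spindle pole protein, had 475, 453, 471 and 504 CPM in U-251MG total RNA and 273, 281, 340.4 and 305 CPM in U-251MG cytoplasmic RNA, against 237, 215, 214 and 226 CPM in U-2 OS total RNA and 213, 212 and 218 CPM in U-2 OS cytoplasmic RNA. The fractions were apart in U-251MG and overlapped in U-2 OS (difference 0.61 ± 0.09, SE; edgeR adjusted p = 0.00509). KNL1 and CENPE, both of the kinetochore, had 0.58 and 0.51 and CENPF had 0.39. With the GC offset, KNL1, CENPE and CENPF had 0.39, 0.30 and 0.24 and lost their calls (edgeR adjusted p = 0.0719, 0.138 and 0.233), ASPM kept its own, and the list's median was 0.11. MKI67 (0.37) and TOP2A (0.29), marks of dividing cells, did not pass (edgeR adjusted p = 0.123 and 0.0804).

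Protein kinases of stress and growth signalling had 3 called of 51 (5.88%), all higher, beside 0.45% of all genes, with a median of 0.21. The 3 were TAOK1, LATS1 of the Hippo pathway (0.53) and ROCK2, a kinase of actin contraction (0.44). With the GC offset the median was 0.08, and TAOK1 and LATS1 stayed called. Beside 0.45% of all genes called higher, counts of 1 or 2 in a list say little of that list. Further called members, all higher in U-251MG, came from lists with 1 or 2 each, and of these ITGB8 and MAP1B stayed called with the GC offset. They were BMPR2 (0.51), a BMP receptor, and PTPRK (0.39), a receptor phosphatase, among 45 receptors and transporters; ARID2 (0.44) and NSD3 (0.40) among 60 chromatin regulators; and ITGB8 among 46 matrix and integrin genes. DNAJC3 (0.57), a co-chaperone of the endoplasmic reticulum, was 1 of 45. MAP1B (0.61), a microtubule-associated protein, was 1 of 31 motor and microtubule genes, and XRN1 (0.44), the cytoplasmic exonuclease that degrades decapped mRNA, 1 of 28 genes of microRNA processing and silencing. Among 443 zinc finger genes named ZNF, ZNF704 (0.63) and ZNF770 (0.46) were higher and ZNF276 and ZNF789 lower, a share of 0.903% that is near the 0.864% of all genes.

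MAP1B, an abundant gene with a higher level in U-251MG, had 1178, 1218, 1273 and 1322 CPM in U-251MG total RNA and 814, 824, 833 and 789 CPM in U-251MG cytoplasmic RNA, against 576, 448, 446 and 488 CPM in U-2 OS total RNA and 488, 466 and 512 CPM in U-2 OS cytoplasmic RNA. The ratio was 0.61 in U-251MG, against 0.00 in U-2 OS (difference 0.61 ± 0.10, SE; edgeR adjusted p = 0.00810), beside a level difference of 1.04.

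A list of 11 lncRNAs drawn up as nuclear-retained had 1 called, where 0.864% of all genes were. The median ratio of this list was -0.30 for U-251MG, against -0.04 for U-2 OS. Whether each member is held in the nucleus was not tested. The called member was OIP5-AS1 (0.44 ± 0.10, SE; edgeR adjusted p = 0.0336). With the GC offset OIP5-AS1 had 0.26 and lost its call (edgeR adjusted p = 0.101). With 1 library left out in turn, it was called in 5 of 15 fits. It had 115, 128, 129.9 and 139.5 CPM in U-251MG total RNA and 72.0, 77.4, 86.4 and 77.1 CPM in U-251MG cytoplasmic RNA, against 84.6, 82.6, 83.1 and 88.5 CPM in U-2 OS total RNA and 69.4, 65.9 and 75.3 CPM in U-2 OS cytoplasmic RNA. MALAT1 and NEAT1, abundant lncRNAs of nuclear speckles and paraspeckles, had differences of -0.52 and -0.79 and did not pass (edgeR adjusted p = 0.167 and 0.312). Both had higher CPM in cytoplasmic than in total RNA in both lines. For these RNAs the ratio thus did not mark a place in the nucleus, and whether it does for the called genes was not tested. MALAT1 had 15.1 to 25.1 CPM in U-251MG total RNA and 45.9 to 58.7 CPM in U-251MG cytoplasmic RNA, against 23.4 to 32.6 CPM and 48.9 to 57.9 CPM in the U-2 OS fractions. No member was called among 14 snoRNA host and cytoplasmic non-coding RNAs (median -0.37, with 0 above 0), 13 mitochondrially encoded mRNAs (-0.21) or 83 cytosolic ribosomal proteins (-0.13), and with 0.864% of all genes called, lists of these sizes would hold few or none. At an unadjusted p under 0.05, the snoRNA host list had 8 members lower and 0 higher in U-251MG, the mitochondrial mRNAs 0 of each, and the ribosomal proteins 15 lower and 1 higher. DESeq2 called 1, 0 and 3 of them lower, in that order, and limma on RPKM called 0 in each list. None was called either among nuclear-encoded oxidative phosphorylation subunits, proteasome subunits, SR proteins and hnRNPs, immediate early genes, histones, metallothioneins, export factors, nonsense-mediated decay factors, cholesterol synthesis genes or vesicle coats, with medians between -0.14 and 0.12. At an unadjusted p under 0.05 these lists had 0 to 16 members higher and 0 to 9 lower, DESeq2 called 0 to 4 higher and 0 to 3 lower per list, and limma on RPKM called 0.

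**Figure D4:**
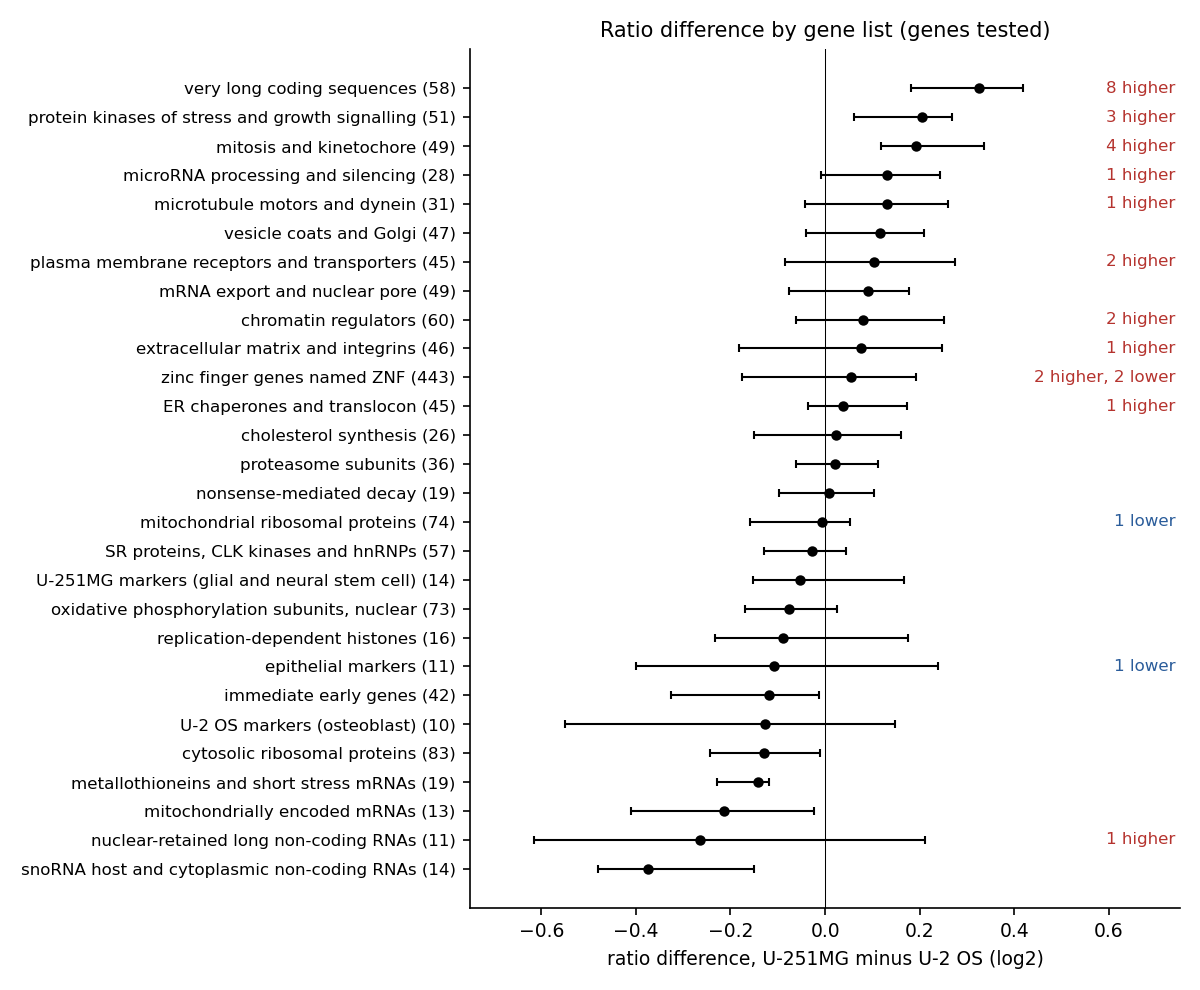
Median and quartiles of the ratio difference, U-251MG minus U-2 OS in log2 units (x axis), for 28 gene lists with the number of genes tested in brackets and the number called at the right. Very long coding sequences lie highest, at 0.33, and snoRNA host and cytoplasmic non-coding RNAs lowest, at -0.37.

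The set of called genes depended on single libraries. Many sat close to the threshold: 64 of the 165 had an adjusted p between 0.04 and 0.05. The last gene inside was the pseudogene GOLM2P1 (0.45) and the first outside NCOA2 (0.48), at an adjusted p of 0.0499 and 0.0512 by edgeR. With 1 library left out, between 7 and 291 genes were higher and between 1 and 298 lower in U-251MG. The lowest counts came without cytoRNA16 of U-2 OS, and the highest without cytoRNA19 of U-251MG (291 higher and 200 lower) and without totRNA5 of U-251MG (216 and 298). In each of the 15 omissions all 165 genes kept the direction of their difference. They were chosen from these same libraries, so kept directions are no separate support. IQGAP1, TAOK1, ITGB8 and ATF7IP, together with ASPM, ZBTB20 and the unannotated ENSG00000234873, were called in all 15. NISCH was called in 3 of the 15 and CPSF4 in 2. PTPN14 and APC were called in 4, MINDY2 in 6, SESN3 in 7, TET1 in 8 and BRCA2 in 11, against 14 for CLOCK, ZBTB41, AAK1 and GPC6. Of the higher-ratio genes, 28 were called in at least 10 omissions and 17 in at most 3. Of the lower-ratio genes, 19 were called in at least 10 and 16 in at most 3.

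**Figure D5:**
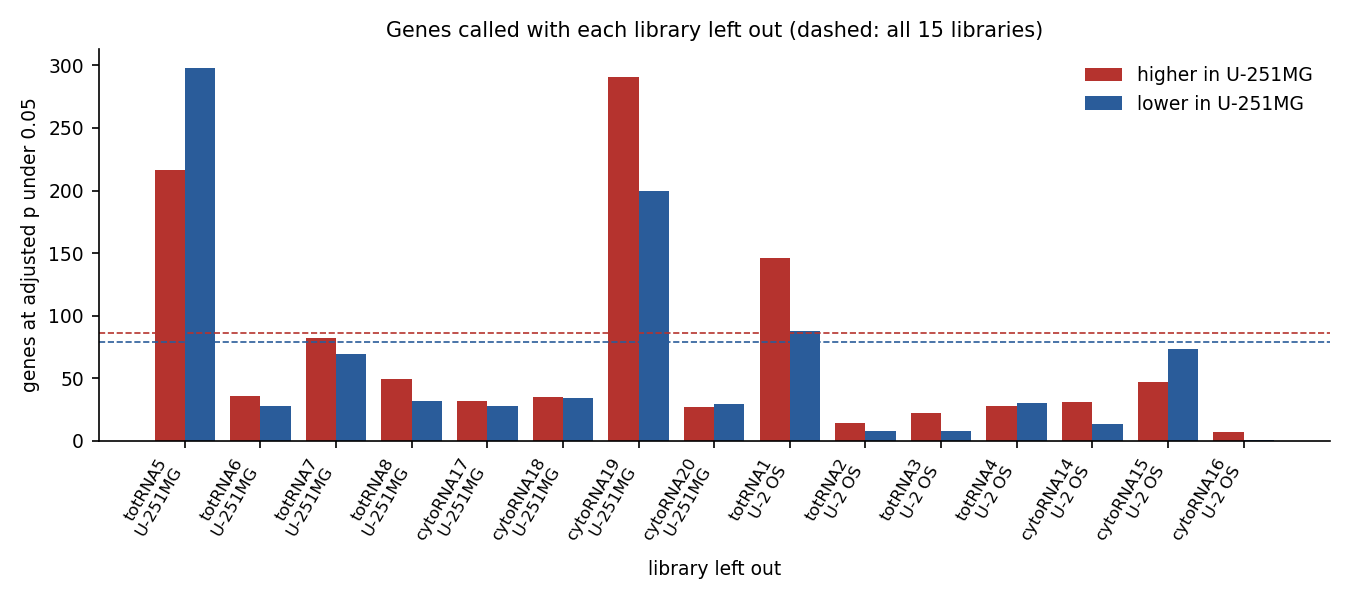
Number of genes called higher (red) and lower (blue) in U-251MG (y axis from 0) when each of the 15 libraries is left out (x axis), with dashed lines for the counts from all 15 libraries, 86 and 79. Counts drop to 7 and 1 without cytoRNA16 and reach 291 higher without cytoRNA19 and 298 lower without totRNA5.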

How the data were processed

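Poly(A)-selected total and cytoplasmic RNA of U-251MG and U-2 OS was analysed from deposited whole-number counts per gene. The authors used TopHat 1.1.4 to align reads to GRCh37 (hg19), SAMtools 0.1.8 to handle alignments and HTSeq 0.4.6 to count reads in exons of Ensembl genes, without regard to strand, so that antisense partners can share reads. Deposited RPKM values, computed by the authors, served in an alternative, as log2(RPKM + 0.5). The methods of the study name RNeasy extraction and single reads, whereas the labels name Trizol and paired ends. The 6 entries per file that name no gene were left out. Of these, reads not wholly within exons made up 13.9% to 21.5% of uniquely aligned reads. In the 4 groups, one library (cytoRNA13) was left out.

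Counts were scaled by TMM, filtered by filterByExpr over the 4 groups, and tested with the robust quasi-likelihood F-test of edgeR 4.0.16 in R 4.3.3. The contrast was the total over cytoplasmic ratio in U-251MG minus that in U-2 OS, with Benjamini-Hochberg adjustment over 19099 genes. The fit was first tested on simulated data. Alternatives used DESeq2 1.42.0, limma 3.58.1, RLE scaling, other filters, thresholds and designs, a GC offset and each library left out.

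Members, lists and rules were chosen with earlier results of these data known. Named were the 12 called coding genes or lncRNAs per direction with the largest difference and at least 5 CPM in each group, up to 6 per direction with at least 20 CPM and a level difference within 0.25, up to 6 per opposite pattern (none found), up to 3 members of highest level and the called members of each of 29 lists where 5 or fewer were called, and MALAT1 and NEAT1. Of each list's members of highest level, those with a bearing on its result are given. GENCODE v44lift37 gave positions and transcripts for 17960 tested genes. The methods of the study state that each line was grown as biological replicates, and p-values measure the spread between these libraries.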

Additional observations from a re-analysis of the deposited data

Results flagged for a closer look

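The interaction test found the fraction ratio to differ between U-251MG and U-2 OS for 86 genes in one direction and 79 in the other, as described above. In the 3 groups of 4 libraries, 47 genes and the GC index were examined for a library far from the rest, 144 sets of values in all, and 5 stood out, where chance flags about 1 in 20 groups, or 7.2. TAOK1 had 137 CPM in totRNA1 of U-2 OS total RNA, against 112 to 115 CPM in the other libraries of that group. AGAP6 had 5.02 CPM in the same library, against 6.78 to 7.10 CPM. ZNF704 had 32.8 CPM in totRNA2 of U-2 OS total RNA, against 37.1 to 37.8 CPM. In cytoRNA19 of U-251MG cytoplasmic RNA, CPSF4 had 45.3 CPM, against 51.2 to 52.2 CPM, and LATS1 had 36.4 CPM, against 33.7 to 33.8 CPM.

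The U-2 OS cytoplasmic library left out, cytoRNA13, had 73.0 CPM of MALAT1, against 49.0 to 58.0 CPM in the other U-2 OS cytoplasmic libraries, and 1064 CPM of NEAT1, against 597 to 828 CPM, when scaled together with them.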

How the results depend on the processing

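None of the 45 called genes chosen by the rule changed sign under the alternatives run, and of all 165 genes 160 kept their sign with RPKM values. The genes were chosen from these same libraries, so kept signs carry no test. The counts moved by over 1.5 times under most alternatives. Against 86 higher and 79 lower genes, DESeq2 gave 486 and 271, no filter on low counts 157 and 176, a mean of at least 1 CPM in each group 52 and 53, one model over all 6 groups 181 and 152, inclusion of cytoRNA13 78 and 10, flow cell A alone 3 and 2, and the GC offset 20 and 25. An adjusted p under 0.01 left 10 and 2, and one under 0.001 left 2 and 0, with 3494 genes at an unadjusted p under 0.05. RPKM values with limma gave 1 and 0, with 2330 genes at an unadjusted p under 0.05. RLE scaling (115 and 70) and a flow cell term (108 and 104) stayed within 1.5 times. Leaving out each library in turn gave 7 to 291 higher and 1 to 298 lower genes. The causes were not tested, except that the stricter thresholds, the fewer libraries and the fewer genes tested are part of how those alternatives were built. Over those 45 genes, 377 of 675 values with 1 library left out stayed past the threshold and 298 did not.

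Chosen after seeing the data, the genes with a GC value fitted with no offset gave 48 and 46. Also chosen then, a replicate block by the numbers of the study's read table gave 191 and 229 genes, of which 80 and 75 were among the 86 and 79. The labels give groups no shared numbers, and the main model held no pairing. Deviations of same-numbered libraries correlated at -0.226 to 0.224 within U-251MG, against -0.276 to 0.331 for differently numbered ones. Within U-2 OS they correlated at 0.030 to 0.116, against -0.102 to 0.035. There each total library with a same-numbered cytoplasmic library correlated most with that one. Whether the libraries are paired is thus not settled. With the GC offset the median of the kinase list was 0.08, against 0.21. At 19918911 to 30835231 reads per library, the median SE of a ratio difference was 0.17, so that differences of that size were not detectable for most genes.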

Other observations

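The 9 processed pseudogenes among the called genes are set beside their parent genes here, without their share among all tested genes. No parent was called, as for most genes, since 0.864% of all tested genes were called. Each parent had a difference of the same sign as its pseudogene. PTPN11P3 and PTPN11P2, copies of the phosphatase gene PTPN11, had ratio differences of 0.72 and 0.52, against 0.24 for PTPN11 (edgeR adjusted p = 0.197). IL6STP1 had 0.85, against 0.40 for IL6ST (edgeR adjusted p = 0.0679), the signalling chain of the interleukin-6 receptor family. HAUS6P1 had 0.68 and TNPO1P3 0.62, against 0.22 for HAUS6 and 0.33 for TNPO1. AHCTF1P1, AP2B1P1 and GOLM2P1 had 0.49, 0.45 and 0.45, against 0.21, 0.22 and 0.20 for AHCTF1, AP2B1 and GOLM2. RPS28P7 had -0.60, against -0.56 for RPS28. These genes and their parents can share reads, so their counts are uncertain.

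ENSG00000234873, which has no entry in the annotation used, had a ratio difference of -1.07 ± 0.16 (SE; edgeR adjusted p = 0.00368) and was called in each of the 15 omissions of a library. Of the 165 genes, 61 of 83 with a higher and 43 of 64 with a lower ratio and a known position overlap an annotated gene on the opposite strand, as do 57.8% of the 17960 tested genes with a position, and the counting did not use strand.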
